A study of Homo sapiens with 8 samples.

Results

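The genes described here are NFE2, GFI1B, KLF1, EPOR, SPTB, ANK1, SLC6A9 and ITGA2B, 8 genes best known from red-cell precursors and megakaryocytes, among 64252 genes in each count table. They were chosen by name because complexes of LDB1, a LIM-domain-binding protein that bridges distant DNA elements, are best known in that lineage, and the choice also rested on measured values, their level and their change with LDB1 knockdown in each line. The levels and changes of the 8 genes are therefore a description, and no p-value is given for them. Where 1 of them is said to be called or past a threshold, that too is a description and not evidence of an effect. RNA was sequenced from 6T-CEM and J.gamma1 cells, T-ALL lines related to CCRF-CEM and Jurkat, and J.gamma1 is a mutant Jurkat subline that lacks phospholipase C gamma 1. In each line, cells with a control shRNA (shControl in the labels, sh-NC here) were compared with cells with an shRNA against LDB1 (shLDB1 in the labels, sh-LDB1 here), with 2 libraries in each of the 4 groups and 8 libraries in all. All 4 groups carried a lentiviral shRNA in the pLKO.1 vector, and the cells described in the methods were selected with puromycin. The methods do not name which LDB1 shRNA the sequenced cells carried, and each line stands for 1 leukaemia. The labels do not say whether the 2 libraries of a group came from separate cultures, so the p-values below measure only the spread between libraries, which may be technical.

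NFE2 is the blood-cell subunit of the transcription factor NF-E2. It pairs with a small MAF protein, acts at the globin locus control region and is needed for platelet release. GFI1B is a zinc-finger repressor of the red-cell and platelet lineages, and KLF1 is the erythroid Krüppel-like factor that switches on adult globin genes. In erythroid cells LDB1 is recruited to GATA and E-box sites by GATA1, TAL1 and LMO2, and the resulting complex brings enhancers to promoters. EPOR is the erythropoietin receptor, SPTB and ANK1 encode the beta-spectrin and ankyrin of the red-cell membrane skeleton, SLC6A9 is the glycine transporter GlyT1 that feeds heme synthesis, and ITGA2B is the platelet integrin alpha-IIb (CD41).

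The LDB1 count was 2777 and 2996 in 6T-CEM sh-NC against 1078 and 1000 in sh-LDB1, and 1909 and 1854 in J.gamma1 sh-NC against 929 and 906 in sh-LDB1. LDB1 thus fell in both lines, by 1.60 ± 0.0709 (SE) on the log2 scale in 6T-CEM (adjusted p = 1.02e-09, edgeR) and by 0.89 ± 0.0751 in J.gamma1 (adjusted p = 3.68e-06, edgeR). In 6T-CEM 33.1% of the sh-NC amount was left after knockdown, and 54.0% was left in J.gamma1 cells, a difference of 0.70 (SE 0.0946) on the log2 scale between the lines (adjusted p = 0.000237, edgeR), and its part in the line differences below was not tested. A library held between 26160492 and 30604977 counts. Of the genes tested, 5.13% (824 of 16059) were called in the 6T-CEM fit and 13.9% (2386 of 17215) in the J.gamma1 fit. A called gene had a log2 fold change beyond 1 in size and passed an adjusted p of 0.05. The label of T-ALL cells was checked against markers. All 15 T-lineage markers had counts in every group, and their summed level was 3250 to 3570 CPM (the count relative to the library total, with totals scaled over all 8 libraries) in the sh-NC libraries and 3700 to 4000 CPM in the sh-LDB1 libraries, higher with sh-LDB1 in each line. The markers went both ways, with 7 higher and 3 lower in 6T-CEM and 8 higher and 4 lower in J.gamma1 at an adjusted p under 0.05 (edgeR). The part of this in the values below was not tested. The 15 defining red-cell and platelet markers summed to between 0.21 and 1.79 CPM over the 8 libraries, with 8 of 15 at 0 in 6T-CEM sh-NC and 10 of 15 at 0 in each of the other 3 groups. HBB, ALAS2, PF4 and GP9 were at 0 in all 8 libraries, and GATA1 was at 0 in the 4 J.gamma1 libraries. The 8 genes were thus measured in cells with T-lineage markers, and fewer cells with a transcript and less of it per cell cannot be told apart in these bulk libraries.

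The promoter windows of 5 genes are shown because LDB1 itself does not bind DNA and is known to reach its erythroid targets through GATA and E-box sites. The windows are RefSeq's, on GRCh38.p14, from 250 bases before to 50 bases after the start of transcription, and RefSeq windows were matched for 6 of the 8 genes (8 windows). NFE2 and ANK1 had no entry. Capitals mark the GATA word AGATAA with its variant AGATAG, the GATA word TGATAA with its variant TGATAG, and the E-box word CAGATG with its variant CAGCTG, searched on both strands.
GFI1B chr9:132978444-132978743 (plus strand): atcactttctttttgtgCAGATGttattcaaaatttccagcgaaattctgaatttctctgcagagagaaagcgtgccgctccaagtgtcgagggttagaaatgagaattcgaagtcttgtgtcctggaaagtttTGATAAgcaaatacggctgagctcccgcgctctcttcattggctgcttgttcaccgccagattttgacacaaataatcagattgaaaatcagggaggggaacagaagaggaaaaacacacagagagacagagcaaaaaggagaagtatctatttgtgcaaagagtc
KLF1 chr19:12887152-12887451 (minus strand): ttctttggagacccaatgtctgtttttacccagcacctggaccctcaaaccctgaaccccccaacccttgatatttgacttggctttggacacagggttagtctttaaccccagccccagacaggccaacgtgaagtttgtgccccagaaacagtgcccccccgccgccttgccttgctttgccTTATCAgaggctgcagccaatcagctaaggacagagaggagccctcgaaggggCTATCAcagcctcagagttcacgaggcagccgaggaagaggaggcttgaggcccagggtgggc
EPOR chr19:11384265-11384564 (minus strand): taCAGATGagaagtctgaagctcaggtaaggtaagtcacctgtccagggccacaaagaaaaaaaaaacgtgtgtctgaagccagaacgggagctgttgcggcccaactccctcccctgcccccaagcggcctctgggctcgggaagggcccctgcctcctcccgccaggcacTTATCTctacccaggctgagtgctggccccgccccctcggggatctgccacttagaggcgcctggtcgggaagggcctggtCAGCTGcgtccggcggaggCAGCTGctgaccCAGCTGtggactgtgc
SLC6A9 chr1:44031413-44031712 (minus strand): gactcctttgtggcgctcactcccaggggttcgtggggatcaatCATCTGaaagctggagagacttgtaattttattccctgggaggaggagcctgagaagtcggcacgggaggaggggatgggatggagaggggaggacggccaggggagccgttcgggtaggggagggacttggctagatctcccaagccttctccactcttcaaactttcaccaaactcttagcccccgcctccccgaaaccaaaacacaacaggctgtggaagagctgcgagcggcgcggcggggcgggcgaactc
ITGA2B chr17:44389600-44389899 (minus strand): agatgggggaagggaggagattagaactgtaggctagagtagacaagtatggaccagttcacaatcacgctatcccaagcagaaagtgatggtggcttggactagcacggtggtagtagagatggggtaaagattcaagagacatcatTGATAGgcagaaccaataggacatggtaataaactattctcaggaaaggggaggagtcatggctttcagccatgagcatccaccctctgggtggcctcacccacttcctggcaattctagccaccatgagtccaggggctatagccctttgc

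GATA words were present in 6 of the 8 windows, and 25% of 35116 windows of the same length hold one. The 5 genes with such a word were GFI1B, KLF1, EPOR, SPTB and ITGA2B. The window of KLF1 held 2, at 66 and 13 bases before the start, that of EPOR held 1 at 78 bases before it, and that of ITGA2B held 1 at 102 bases before it. The window of SLC6A9 held no GATA word and 1 E-box word, at 206 bases before the start. E-box words were in 5 of the 8 windows (29.8% of all windows), and EPOR had 4 of them. The NF-E2 core word TGAGTCA (4.95% of all windows) and the CACCC word CCACACCC (3.28%), which are the words of NFE2 and KLF1, were in 0 of the 8 windows. A word is a match of letters and not a binding site, and its absence says only that these letters are not in this window.

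NFE2 (ENSG00000123405) lies on chromosome 12 from 54292111 to 54301015 on the minus strand of GRCh38. Its count was 579 and 563 in the 2 libraries of 6T-CEM sh-NC, 118 and 139 in 6T-CEM sh-LDB1, 179 and 154 in J.gamma1 sh-NC, and 0 and 0 in J.gamma1 sh-LDB1. Both sh-LDB1 libraries were below both sh-NC libraries in each line. The mean level was 21.6 ± 0.984 CPM (SD, n = 2) for the controls of 6T-CEM and 4.45 ± 0.575 for the knockdown. The log2 fold change was -2.27 (SE 0.153), which leaves 20.7% of the control level. The J.gamma1 levels were 5.26 ± 0.535 CPM (sh-NC) and 0 CPM (sh-LDB1). Against a floor of 3 counts per library, which corresponds to 0.104 CPM in that group, NFE2 was at least 50.3-fold lower in J.gamma1 sh-LDB1, or -5.65 and below on the log2 scale. The floor covers counting error only and not the spread between libraries. The bound minus the 6T-CEM value is -3.38 on the log2 scale, a difference that was not tested. The level of NFE2 in 6T-CEM sh-NC was at percentile 68.8 of the genes with a count, and in both 6T-CEM sh-LDB1 and J.gamma1 sh-NC at percentile 56.3.

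The 3′ UTR of NFE2 was the only one among the 8 genes with a 7-base site for the seed of any of the 3 LDB1 shRNAs in the study's list. Bases 2 to 8 of a guide strand, its seed, can pair with transcripts other than the target. The site, for sh-LDB1#1, is in 3 of 5 coding transcripts of NFE2 at 54292255 to 54292261. It is shown here in capitals within 29 bases of the transcript sequence because no other gene of the 8 had one.
NFE2 chr12:54292244-54292272 (minus strand): ccagaagaggaTGACAATggcaacaagtg
A site for sh-LDB1#1 is in 14.2% of 19595 coding genes with an annotated 3′ UTR, for sh-LDB1#2 in 25.1% and for sh-LDB1#3 in 12.8%. Of the 8 genes, 1 held a site for sh-LDB1#1 and 0 held one for either of the others, so nothing is read from this match. The part of this site in the level of NFE2 was not tested.

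GFI1B (ENSG00000165702, chromosome 9, 132944000 to 132991687) had counts only in 6T-CEM, with 39 and 48 in sh-NC and 10 and 24 in sh-LDB1. Both sh-LDB1 libraries were below both control libraries, and the levels were 1.64 ± 0.198 and 0.591 ± 0.351 CPM (SD, n = 2), a log2 fold change of -1.46 (SE 0.458). In all 4 J.gamma1 libraries its count was 0, which allows up to 3 counts or between 0.0945 and 0.107 CPM per library, so a change was not detectable there. GFI1B shares 349 exon bases with TSC1 on the opposite strand, and TSC1 had 1108 to 1200 counts in 6T-CEM and 1488 to 2157 in J.gamma1. Without 1 of the libraries the log2 fold change of GFI1B ranged from -2.24 to -0.96.

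KLF1 (ENSG00000105610, chromosome 19, 12884422 to 12887201) had counts of 19 and 7 in 6T-CEM sh-NC, 10 and 5 in 6T-CEM sh-LDB1, 15 and 31 in J.gamma1 sh-NC and 0 and 5 in J.gamma1 sh-LDB1. The groups overlapped in 6T-CEM, where KLF1 did not pass the filter on low counts, and did not overlap in J.gamma1. In J.gamma1 the levels were 0.727 ± 0.361 CPM with sh-NC and 0.0848 ± 0.12 CPM with sh-LDB1. The log2 fold change was -3.01 (SE 0.909). This value rests on few counts. It lay between -3.44 and -2.07 when 1 of the other 3 libraries was left out, and without replicate 2 of J.gamma1 sh-LDB1, the library with 5 counts, the sh-LDB1 group was at 0 and no fold is given.

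The membrane and receptor genes differed from each other in direction. EPOR (ENSG00000187266, chromosome 19, 11377207 to 11384342) had counts of 152 and 148 in 6T-CEM sh-NC, 115 and 154 in 6T-CEM sh-LDB1, 363 and 398 in J.gamma1 sh-NC and 132 and 193 in J.gamma1 sh-LDB1. In 6T-CEM the levels were 5.67 ± 0.253 and 4.66 ± 1.02 CPM (SD, n = 2), and the log2 fold change of -0.28 (SE 0.215) was close to its error. In J.gamma1 they were 11.4 and 12.6 CPM in the controls and 5.63 ± 1.3 CPM after knockdown, a log2 fold change of -1.09 (SE 0.178), with both sh-LDB1 libraries below both controls. The J.gamma1 value stands near the threshold of 1 and was -0.87 without replicate 1 of sh-LDB1.

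ITGA2B (ENSG00000005961, chromosome 17, 44372180 to 44389649) had 10 and 5 counts in 6T-CEM sh-NC and 8 and 3 in 6T-CEM sh-LDB1, overlapping groups that did not pass the filter. The J.gamma1 libraries held 85 and 93 (sh-NC) against 4 and 20 counts (sh-LDB1). The J.gamma1 groups did not overlap, and the levels of 2.81 ± 0.191 and 0.411 ± 0.379 CPM gave a log2 fold change of -2.74 (SE 0.52). Without replicate 2 of J.gamma1 sh-LDB1 the value was -4.25, and without replicate 1 it was -2.04.

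SPTB (ENSG00000070182, chromosome 14, 64746283 to 64879907) went in opposite directions in the lines. Its count was 0 and 5 in 6T-CEM sh-NC and 40 and 25 in 6T-CEM sh-LDB1, against 498 and 515 in J.gamma1 sh-NC and 208 and 186 in J.gamma1 sh-LDB1. Both sh-LDB1 libraries were above both controls in 6T-CEM and below both controls in J.gamma1. The 6T-CEM level was 0.0927 ± 0.131 CPM (sh-NC) and 1.12 ± 0.352 CPM (sh-LDB1), a log2 fold change of 3.52 (SE 0.793). The J.gamma1 level was 16.0 ± 0.451 CPM (sh-NC) and 6.87 ± 0.79 CPM (sh-LDB1), a log2 fold change of -1.21 (SE 0.14). Even with sh-LDB1, the 6T-CEM level stayed under the J.gamma1 level. The size in 6T-CEM depends on the 5 counts of a single control library, replicate 2 of sh-NC. Without that library the control group was at 0 and no fold is given, and without 1 of the other 3 libraries the value lay between 2.58 and 3.80. SPTB shares 3408 exon bases with PLEKHG3 on the opposite strand, whose count was 24 and 27 in J.gamma1 sh-NC, 63 and 84 in J.gamma1 sh-LDB1 and at most 3 in 6T-CEM. Whether reads of the pair were assigned to the wrong gene was not tested.

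SLC6A9 (ENSG00000196517, chromosome 1, 43991500 to 44031467) was the gene of the set that was higher with sh-LDB1 in both lines. Its count was 26 and 42 in 6T-CEM sh-NC, 174 and 186 in 6T-CEM sh-LDB1, 17 and 30 in J.gamma1 sh-NC and 171 and 161 in J.gamma1 sh-LDB1. The groups did not overlap in either line. The levels were 1.28 ± 0.394 and 6.23 ± 0.379 CPM in 6T-CEM, a log2 fold change of 2.28 (SE 0.265, 4.86-fold), and 0.743 ± 0.294 and 5.78 ± 0.455 CPM in J.gamma1, a log2 fold change of 2.96 (SE 0.302, 7.79-fold). SLC6A9 shares 413 exon bases with CCDC24 on the opposite strand, which had 21 to 120 counts per library and log2 fold changes of -0.28 (adjusted p = 0.709, edgeR) and -0.02 (adjusted p = 0.949, edgeR). ANK1 (ENSG00000029534), on chromosome 8, had 5 counts in replicate 1 of 6T-CEM sh-NC and 0 in the other 7 libraries, too few for a change to be given.

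**Figure D1:**
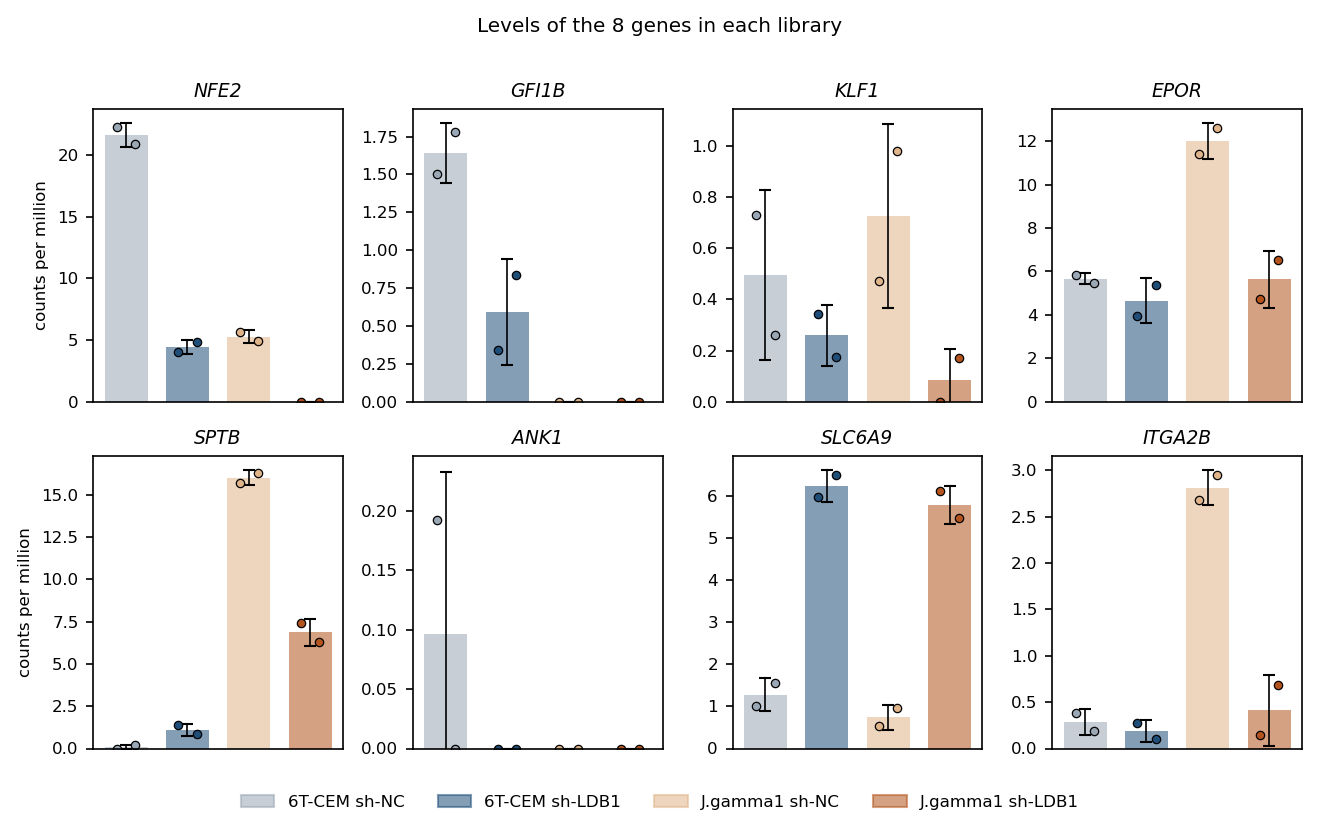
The panels plot CPM (vertical axis, linear and starting at 0, with a scale of its own in each panel) for the 8 genes in the 4 groups; points are the 2 libraries of a group, bars are means and whiskers are SDs. The NFE2 means are 21.6 and 4.45 in 6T-CEM but 5.26 and 0 in J.gamma1, SLC6A9 is higher with sh-LDB1 in both lines, and SPTB is higher in 6T-CEM and lower in J.gamma1.

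Of the 8 genes, 5 passed the filter on low counts in 6T-CEM and 6 in J.gamma1, and the genes that passed are not the whole set. In 6T-CEM 4 of the 5 were past both thresholds (SPTB and SLC6A9 higher, NFE2 and GFI1B lower), where 5.13% of all genes tested were called, 2.74% higher and 2.39% lower. In J.gamma1 all 6 of those that passed the filter were past both thresholds (SLC6A9 higher; NFE2, KLF1, ITGA2B, SPTB and EPOR lower), where 13.9% were called, 6.67% higher and 7.19% lower. Both sh-LDB1 libraries were below both controls for 3 of the 5 genes in 6T-CEM (33.2% of all genes tested) and above them for 2 (32.1%), and in J.gamma1 below them for 5 of the 6 (38.6%) and above them for 1 (37.2%). The genes were listed with these changes in view, so nothing is read from these counts. Some calls also depended on the setting. GFI1B in 6T-CEM was not called with DESeq2, with no filter beyond 1 count or in 1 fit to all 8 libraries. SPTB in 6T-CEM was not called with DESeq2, and KLF1 in J.gamma1 was not called with no filter beyond 1 count. These calls, and that of EPOR in J.gamma1, were also lost in some of the fits without 1 library. The effect sizes of those fits are given with each gene above.

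**Figure D2:**
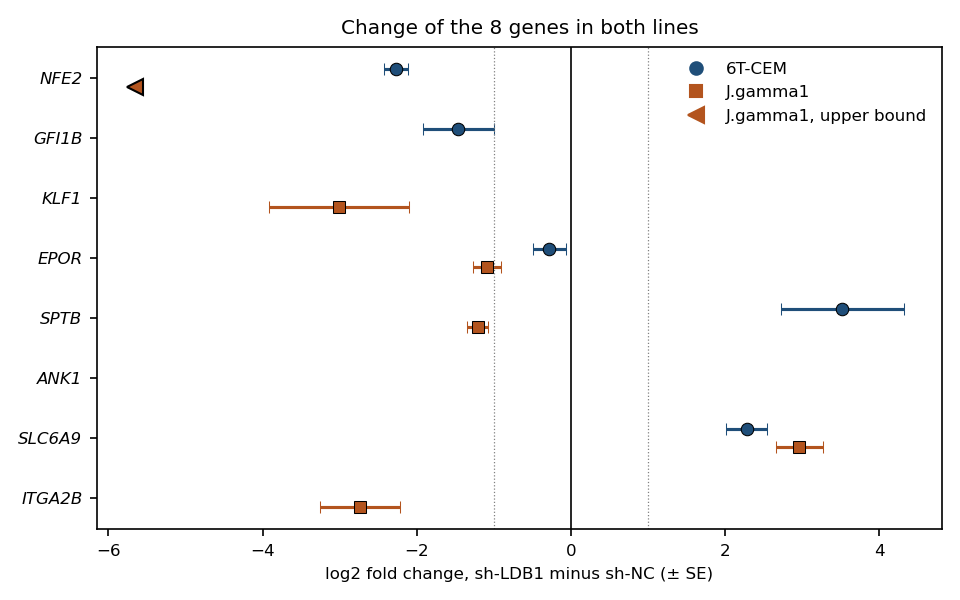
The horizontal axis gives the log2 fold change of sh-LDB1 minus sh-NC with its SE, with circles for 6T-CEM and squares for J.gamma1; dotted lines mark the threshold of 1, the triangle is the upper bound of -5.65 for NFE2 in J.gamma1, and genes under the filter on low counts have no mark. SLC6A9 lies above 2 in both lines, and SPTB lies at 3.52 in 6T-CEM but at -1.21 in J.gamma1.

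Levels can be set side by side between genes only per length, here as CPM divided by the kilobases of exon (RPKM, group means). In 6T-CEM sh-NC the order was NFE2 (9.13), EPOR (1.84), KLF1 (0.307), GFI1B (0.269), SLC6A9 (0.244), ITGA2B (0.0501), ANK1 (0.00875) and SPTB (0.00627). KLF1, GFI1B and SLC6A9 were not separated in that order, nor were ANK1 and SPTB. With sh-LDB1 the first 3 genes of 6T-CEM lay close together, NFE2 at 1.88, EPOR at 1.52 and SLC6A9 at 1.19 RPKM, and the NFE2 and EPOR libraries overlapped. In J.gamma1 sh-NC the order was EPOR (3.91), NFE2 (2.23), SPTB (1.08), ITGA2B (0.494), KLF1 (0.451) and SLC6A9 (0.142), with ITGA2B and KLF1 not separated and with GFI1B and ANK1 at 0. With sh-LDB1 SLC6A9 came second in J.gamma1, at 1.10 RPKM between EPOR at 1.83 and SPTB at 0.464. With the longest transcript as the length, these values were higher for every gene with a count but KLF1, for example 11.8 for NFE2 in 6T-CEM sh-NC. The order then changed for genes that lay close together. GFI1B (0.543) and SLC6A9 (0.399) came before KLF1 (0.307) in 6T-CEM sh-NC, and SLC6A9 (1.94) came level with EPOR (1.93) in 6T-CEM sh-LDB1.

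Genes whose levels were most like those of NFE2 in pattern were looked for among 14655 genes, by Pearson's r of log2 CPM over the 8 libraries, as a description. They were CHAF1A (0.998), RTF1 (0.997), ETS1 (0.996), TBC1D2B (0.996) and AKT1 (0.996). For GFI1B they were ALDOA (0.998), NME4 (0.997), NDUFA9 (0.996), MRPL46 (0.995) and AAMP (0.995). The 8 libraries form only 4 groups, so such a correlation rests largely on 4 group means and takes no account of the size of a change. CHAF1A, for example, had 5213 and 5470 counts in 6T-CEM sh-NC, 4417 and 4383 in sh-LDB1, 5233 and 5112 in J.gamma1 sh-NC and 2352 and 2365 in sh-LDB1, none of them near 0.

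Other genes of the same pathways were taken from 12 lists by known role, 205 genes without the 8 genes above and without LDB1. In 6T-CEM 124 of them were tested and 10 were called (8.06%, against 5.13% of all genes), 2 that rose and 8 that fell. In J.gamma1 148 were tested and 35 were called (23.6%, against 13.9%), 6 that rose and 29 that fell. The median log2 fold change of the listed genes was -0.07 and -0.14, beside 0.00 over all genes tested in each line. Of the 120 tested in both lines, 7 were called in both and in the same direction. They were LYL1, ABCB10, SLC40A1, STAT5A and RGS18, which fell, and SOCS1 and KLF10, which rose. Several listed genes, LYL1 and STAT5A among them, were known to have changed from earlier results of these libraries.

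**Figure D3:**
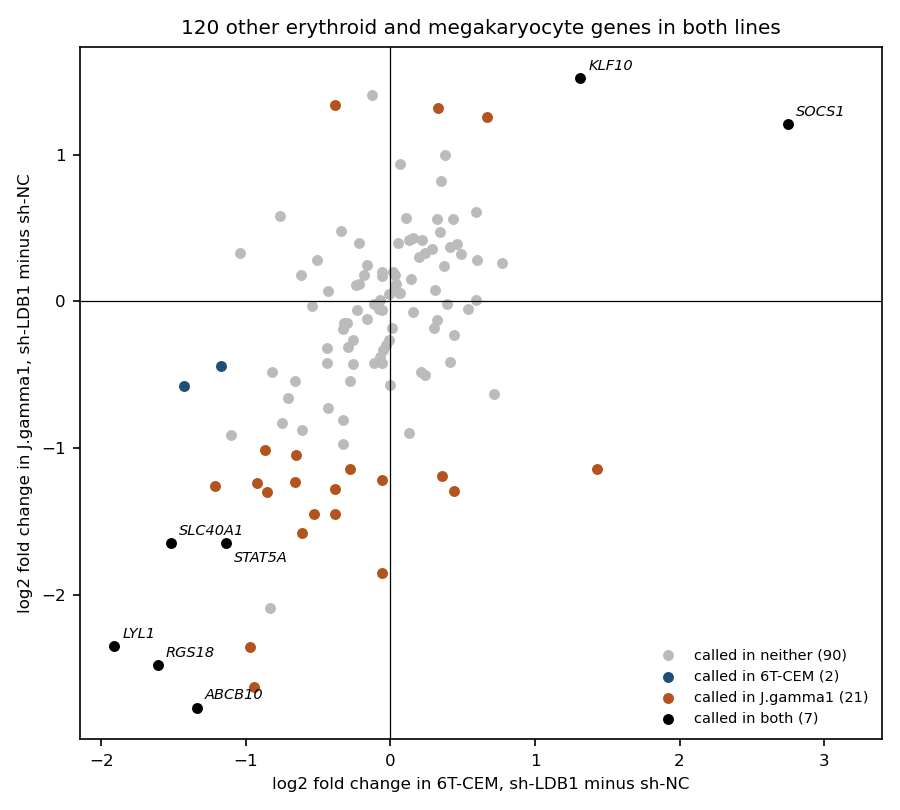
Each point is 1 of the 120 listed genes tested in both lines, with its log2 fold change (sh-LDB1 minus sh-NC) in 6T-CEM on the horizontal axis and in J.gamma1 on the vertical axis, and colours give the line in which it was called. The 7 named genes were called in both lines, 5 of them at the lower left and 2 at the upper right.

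The NFE2 list held its dimer partners and relatives, and 0 of 8 were called in either line. At an adjusted p under 0.05 alone, which 31.3% of all genes tested passed in 6T-CEM and 51.5% in J.gamma1, 5 were higher and 1 lower in 6T-CEM, and 2 were higher and 4 lower in J.gamma1. The following 2 were named after their values were seen. MAFG, a small MAF partner of NFE2, had 959 and 947 counts in 6T-CEM sh-NC and 1369 and 1384 in sh-LDB1, against 1942 and 1800 in J.gamma1 sh-NC and 1173 and 1370 in sh-LDB1. Its log2 fold changes were 0.41 (SE 0.0807) and -0.41 (SE 0.0773), and they differed between the lines (adjusted p = 0.000192, edgeR), as those of 24.4% of all genes did. NFE2L2, the relative known as NRF2, had log2 fold changes of 0.35 (SE 0.0648, adjusted p = 0.000752, edgeR) and 0.82 (SE 0.0692, adjusted p = 3.69e-06). The partner of NFE2 was thus still measured in J.gamma1 sh-LDB1, where NFE2 itself had no count.

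Among heme and iron genes, 2 of 17 (11.8%) were called in each line, against a background of 5.13% (6T-CEM) and 13.9% (J.gamma1), so the share in J.gamma1 was under the background. The called genes were the same pair. ABCB10, a mitochondrial transporter that takes part in heme synthesis, had counts of 2391 and 2204 in 6T-CEM sh-NC, 1027 and 949 in 6T-CEM sh-LDB1, 16895 and 14548 in J.gamma1 sh-NC and 2034 and 2130 in J.gamma1 sh-LDB1. It fell by 1.34 (SE 0.0799) on the log2 scale in 6T-CEM (adjusted p = 1.94e-08, edgeR) and by 2.77 (SE 0.0721) in J.gamma1 (adjusted p = 1.1e-08). SLC40A1 (ferroportin, the iron exporter) had 1522 and 1546 counts in 6T-CEM sh-NC and 604 and 558 in sh-LDB1, and 2726 and 2628 in J.gamma1 sh-NC and 698 and 844 in sh-LDB1. It fell by 1.52 (SE 0.0846, adjusted p = 9.61e-09) and by 1.65 (SE 0.0796, adjusted p = 5.62e-08). The changes of ABCB10 differed between the lines (adjusted p = 6.37e-06), and those of SLC40A1 differed by -0.13 (SE 0.112, adjusted p = 0.453). The other 15 heme and iron genes tested did not pass both thresholds in either line.

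Of the red-cell membrane genes, 0 of 11 (6T-CEM) and 3 of 18 (J.gamma1) were called, and the J.gamma1 share of 16.7% was near the background of 13.9%. GYPC (glycophorin C) had 4226 and 4212 counts in J.gamma1 sh-NC and 1497 and 1642 in sh-LDB1 and fell by 1.28 (SE 0.0539, adjusted p = 2.29e-08, edgeR). In 6T-CEM its log2 fold change was -0.38 (SE 0.0671). AQP1 and RHCE had at most 31 counts in a library, log2 fold changes of 1.75 and -1.72 and adjusted p values of 0.0281 and 0.031 (edgeR), and each missed the threshold in 7 other settings, DESeq2 among them. The globin list had 0 genes tested in 6T-CEM and 0 of 3 called in J.gamma1, where the highest count, 149, was that of HBQ1 (theta-globin). Of the spectrin and ankyrin relatives of SPTB and ANK1, 0 of 4 (6T-CEM, against 5.13% of all genes) and 2 of 5 (J.gamma1, 40.0% against 13.9%) were called. SPTBN1, the widely used beta-spectrin of other cells, had 18990 and 19483 counts in J.gamma1 sh-NC and 8596 and 8227 in sh-LDB1 and fell by 1.05 (SE 0.053, adjusted p = 8.75e-08). Without replicate 2 of J.gamma1 sh-LDB1 this was -0.97, inside the fold threshold.

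Of the erythropoietin and thrombopoietin signalling genes, 3 of 12 (6T-CEM, 25.0% against 5.13% of all genes) and 4 of 14 (J.gamma1, 28.6% against 13.9%) were called. SOCS1, a feedback inhibitor of cytokine receptors such as EPOR, had 35 and 37 counts in 6T-CEM sh-NC and 256 and 274 in sh-LDB1 and rose by 2.75 (SE 0.219, adjusted p = 2.95e-07, edgeR). In J.gamma1 the counts were 19 and 18 against 33 and 45 and rose by 1.21 (SE 0.406, adjusted p = 0.028), a call that was lost in 6 other settings. KIT, the receptor that works with EPOR in red-cell precursors, had 339 and 277 counts in J.gamma1 sh-NC and 97 and 145 in sh-LDB1 and fell by 1.21 (SE 0.205, adjusted p = 0.000583), with at most 6 counts in any 6T-CEM library. Without replicate 1 of J.gamma1 sh-LDB1 the value for KIT was -0.98, inside the threshold. THPO (thrombopoietin) fell in 6T-CEM by 1.82 (SE 0.384, adjusted p = 0.00213), from 63 and 48 counts to 18 and 16.

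The megakaryocyte and platelet list had 2 of 19 genes called (6T-CEM, 10.5% against 5.13% of all genes) and 10 of 23 (J.gamma1, 43.5% against 13.9%), in the latter 2 that rose and 8 that fell. Its median log2 fold change in J.gamma1 was nevertheless 0.03. The 2 that rose there, named after their values were seen, were RAB27B and NBEAL2. RAB27B rose by 1.34 (SE 0.304, adjusted p = 0.00361, edgeR) and NBEAL2 by 1.32 (SE 0.0647, adjusted p = 6.16e-08, edgeR). RGS18, a regulator of G-protein signalling that is abundant in platelets, had 324 and 334 counts in 6T-CEM sh-NC and 112 and 123 in sh-LDB1, and 1014 and 874 in J.gamma1 sh-NC and 168 and 138 in sh-LDB1. It fell by 1.61 (SE 0.173, adjusted p = 6.25e-06, edgeR) and by 2.48 (SE 0.142, adjusted p = 2.31e-07). ITGB3, the integrin beta-3 chain that pairs with ITGA2B on platelets, had 236 and 146 counts in J.gamma1 sh-NC and 58 and 68 in sh-LDB1 and fell by 1.45 (SE 0.265, adjusted p = 0.00091). Both chains of the platelet integrin were thus lower in J.gamma1 sh-LDB1, and in 6T-CEM ITGB3 had 9 to 14 counts and a log2 fold change of -0.53 (SE 0.624, adjusted p = 0.571). SELP (P-selectin) fell in J.gamma1 by 2.83 (SE 0.393, adjusted p = 0.000139), and PLEK (pleckstrin) fell by 2.36 (SE 0.522, adjusted p = 0.00309) from 33 and 42 counts to 8 and 5.

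**Figure D4:**
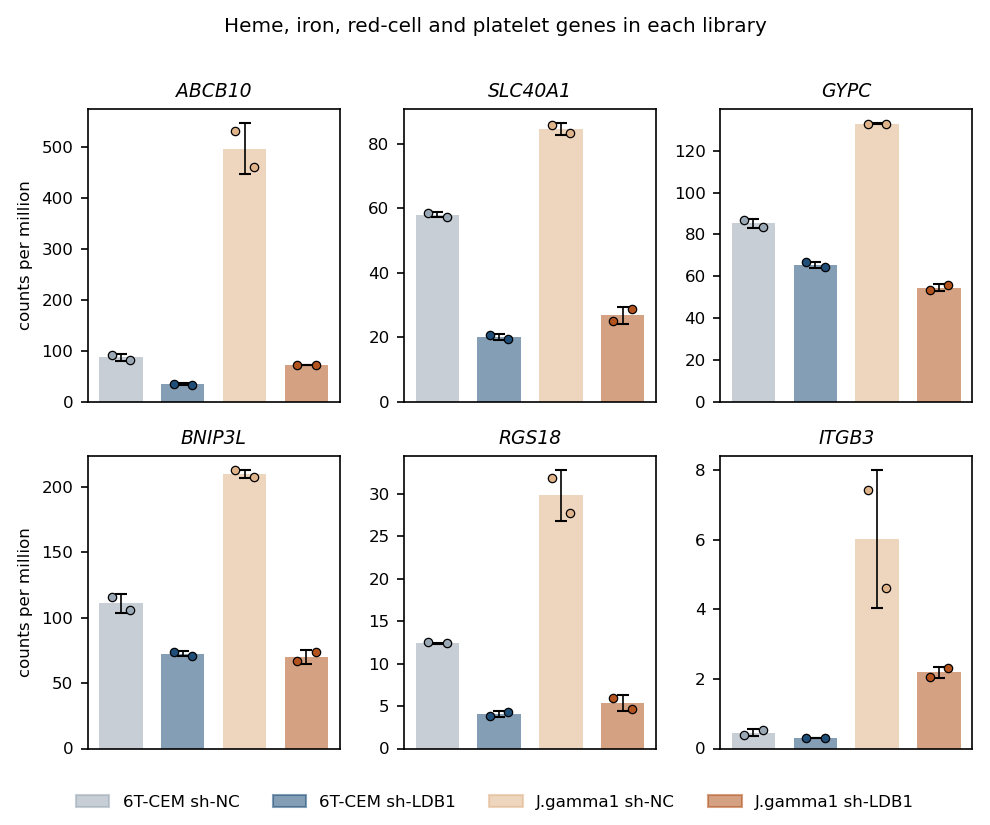
The panels plot CPM (vertical axis, linear and starting at 0, with a scale of its own in each panel) for 6 listed genes in the 4 groups; points are the 2 libraries of a group, bars are means and whiskers are SDs. In J.gamma1 the sh-LDB1 libraries of all 6 genes lie below the sh-NC libraries, since the genes shown were picked from those called lower there. Listed genes that rose are not shown.

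The Krüppel-like relatives of KLF1 had 1 of 9 genes called (6T-CEM, 11.1% against 5.13% of all genes) and 5 of 14 (J.gamma1, 35.7% against 13.9%). KLF10 rose in both lines, by 1.31 (SE 0.131, adjusted p = 3.17e-06, edgeR) and by 1.52 (SE 0.0769, adjusted p = 8.01e-08), with 222 and 250 against 668 and 603 counts in 6T-CEM and 582 and 589 against 1447 and 1597 in J.gamma1. KLF13 rose in J.gamma1 by 1.26 (SE 0.0517, adjusted p = 1.93e-08), while KLF8 and KLF11 fell there by 1.85 (SE 0.483, adjusted p = 0.00823) and 1.32 (SE 0.176, adjusted p = 0.000103). The call of KLF8 was lost without replicate 1 of J.gamma1 sh-LDB1 (adjusted p = 0.0555).

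The glycine list, which holds genes of glycine supply and cleavage beside SLC6A9, had 0 of 11 genes called (6T-CEM, against 5.13% of all genes) and 3 of 11 (J.gamma1, 27.3% against 13.9%), all 3 of which fell. SLC38A2, an amino acid transporter that also carries glycine, had 21872 and 20476 counts in J.gamma1 sh-NC and 6924 and 7087 in sh-LDB1 and fell by 1.45 (SE 0.0481, adjusted p = 4.87e-09, edgeR). GLDC, which encodes the decarboxylase of the glycine cleavage system, fell in J.gamma1 by 1.14 (SE 0.122, adjusted p = 2.12e-05) from 584 and 562 counts to 222 and 248. AMT, another enzyme of that system, fell in J.gamma1 by 1.26 (SE 0.334, adjusted p = 0.00889) from 62 and 81 counts to 23 and 31. At an adjusted p under 0.05 alone (edgeR), which 51.5% of all genes tested passed in J.gamma1, 3 genes of this list were higher and 5 lower there. The list thus went both ways in J.gamma1.

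Of the listed transcription factors, 0 of 13 erythroid factors (6T-CEM, against 5.13% of all genes) and 3 of 15 (J.gamma1, against 13.9%) were called. In the latter KLF13 rose and MYB and TAL1 fell. MYB was also lower in 6T-CEM, with 18747 and 19140 counts in sh-NC and 10952 and 10476 in sh-LDB1. This drop was -0.94 on the log2 scale (SE 0.0508, adjusted p = 7.3e-09, edgeR), inside the fold threshold. KLF13 in 6T-CEM (0.67, adjusted p = 4.64e-06, edgeR) was likewise inside it, and TAL1 stood at -0.06 (adjusted p = 0.661). Of the LDB1 complex genes, LDB1 included, 2 of 17 were called in the 6T-CEM fit (11.8%, against 5.13% of all genes). In the J.gamma1 fit 4 of 16 were called (25.0%, against 13.9%). The call of LDB1 in 6T-CEM was set by the design, since LDB1 is the target of the shRNA. Beside LDB1, LYL1 was called lower in 6T-CEM, by 1.91 (SE 0.0965, adjusted p = 3.98e-09, edgeR). In J.gamma1 LYL1, GATA2, TAL1 and CBFA2T3 were called lower. GATA2 and CBFA2T3 were also lower in 6T-CEM, by 0.66 (adjusted p = 0.00813, edgeR) and 0.87 (adjusted p = 5.66e-06), inside the fold threshold. Their line differences had adjusted p values of 0.082 and 0.341 (edgeR). GATA2, the partner that acts before GATA1 in blood precursors, had 358 and 372 counts in J.gamma1 sh-NC and 143 and 137 in sh-LDB1 and fell by 1.23 (SE 0.155, adjusted p = 6.58e-05). Of the other erythroid proteins, 1 of 7 was called in 6T-CEM (14.3%, against 5.13%) and 1 of 9 in J.gamma1 (11.1%, under the background of 13.9%). HEMGN (hemogen) fell in 6T-CEM by 1.17 (SE 0.289, adjusted p = 0.00629, edgeR). BNIP3L, which clears mitochondria from maturing red cells, fell in J.gamma1 by 1.58 (SE 0.0588, adjusted p = 1.09e-08, edgeR). The call of HEMGN was lost without replicate 1 of 6T-CEM sh-NC (adjusted p = 0.0803) and without replicate 2 of 6T-CEM sh-LDB1 (adjusted p = 0.0597).

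Position was not used to list the genes, so their neighbours within 100 kb were tested. Of 108 annotated neighbours, 50 were tested in 6T-CEM and 3 were called (6.00%, against 5.13% of all genes), and 53 were tested in J.gamma1 and 10 were called (18.9%, against 13.9%). The share in 6T-CEM lies near the background, and no test of a difference was made. Within 500 kb the shares were 4.55% (7 of 154) and 11.6% (20 of 173), under the background in both lines. In 6T-CEM GPR84 near NFE2, SYCE2 near KLF1 and PLPPR2 near EPOR fell, by 1.30 (SE 0.178), 1.26 (SE 0.211) and 1.26 (SE 0.228). In J.gamma1 SYCE2, MAST1, FARSA and CALR near KLF1 fell by 2.48, 1.01, 1.03 and 1.41, PLPPR2 and RAB3D near EPOR by 1.14 and 1.37, and RAB15 near SPTB by 1.51. CEL near GFI1B, PLEKHG3 at SPTB and DPH2 near SLC6A9 rose in J.gamma1 by 1.25, 1.66 and 1.06. The 3 neighbours of NFE2 nearest to it with a value, named after their values were seen, were not called. COPZ1, 0.2 kb from NFE2, had log2 fold changes of -0.12 (adjusted p = 0.149, edgeR) and -0.04 (adjusted p = 0.609). HNRNPA1, at 5.0 kb, had -0.50 (adjusted p = 4.7e-06) and -0.72 (adjusted p = 1.65e-07), and CBX5, at 12 kb, had -0.23 in both lines (adjusted p = 0.00342 and 0.0218).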

How the data were processed

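RNA sequencing of 8 libraries, 2 for each of 4 groups, was analysed. Paired-end reads of 150 bp were aligned by the authors to hg38 (HISAT2 2.2.0) and genes quantified with StringTie, and they deposited 2 tables, 1 for each line, that hold raw whole-number counts per gene for each replicate. The annotation release, the use of strand and the treatment of reads that match several genes are not given in the sources used here, so overlapping genes are uncertain. A line cannot be told apart from anything else that differed between the 2 tables.

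The total count was 26160492 to 30604977 per library, replicates correlated at 0.986 to 0.987 (Pearson, log2 CPM), and edgeR's common coefficient of biological variation came to 9.68% (6T-CEM) and 9.16% (J.gamma1). Each line was fitted by itself with edgeR 4.0.16 in R 4.3.3 (quasi-likelihood test, robust, TMM, filterByExpr, Benjamini-Hochberg adjustment across the genes tested). Calls needed a log2 fold change beyond 1 in size and an adjusted p under 0.05. Differences between the lines were tested as an interaction in 1 fit to all 8 libraries. Fold changes used a prior count of 0.125. Each SE is the size of the log2 fold change divided by the square root of the quasi-likelihood F statistic. It was thus derived from the test and not estimated apart from it. A fold against a group at 0 was bounded with 3 counts per library, and such floors cover counting error only. CPM was scaled with TMM over all 8 libraries, and RPKM used the union of exons of GENCODE release 44 (GRCh38). Gene symbols were matched for 56105 of 64252 identifiers and for all 8 genes. Promoter windows are those of RefSeq on GRCh38.p14. The shRNA sequences are those of the study. Fitting was tested on simulated counts.

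The 8 genes and the lists were chosen with earlier results of these data known. Named genes are the 8 genes and LDB1, up to 4 called genes per list and line by size of change among those that averaged 20 counts or more in 1 group, called neighbours within 100 kb, and the 5 genes most like NFE2 and GFI1B. Alternatives were other scaling factors, other filters on low counts, DESeq2 1.42.0, the replicate number as a block, 1 library left out, 1 fit to all libraries, other thresholds, another prior count, another length and a 500 kb window. Python 3.11.15 was used for the other steps. Lists of myeloid and B-lineage markers were also summed. Myeloid markers lay between 5.19 and 12.5 CPM and B-lineage markers between 34.0 and 84.7 CPM.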

Additional observations from a re-analysis of the deposited data

Results flagged for a closer look

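The knockdown effects of the following genes outside the set of 8 differed between the lines in the test of the difference (edgeR, adjusted p under 0.05, log2 fold change in J.gamma1 minus that in 6T-CEM). LDB1 itself differed by 0.70 (SE 0.0946, adjusted p = 0.000237), as its level fell less in J.gamma1. Values below 0 were found for listed genes that fell in J.gamma1, MYB (-1.69, SE 0.0669, adjusted p = 6.23e-08), ABCB10 (-1.43, SE 0.109), PLEK (-1.39, SE 0.427), TAL1 (-1.17, SE 0.0838), SLC38A2 (-1.07, SE 0.0644), BNIP3L (-0.97, SE 0.0914), GYPC (-0.91, SE 0.0775), RGS18 (-0.87, SE 0.218), STAT5A (-0.51, SE 0.128), STAT5B (-0.44, SE 0.0898) and SPTBN1 (-0.40, SE 0.0865). GLDC, which also fell in J.gamma1, differed by -2.57 (SE 0.714, adjusted p = 0.0313), with 2 to 38 counts in the 6T-CEM libraries. SOCS1, which rose in both lines, differed by -1.54 (SE 0.384, adjusted p = 0.0116). KLF13 differed by 0.58 (SE 0.0818, adjusted p = 0.000329) and ITGA6 by 0.85 (SE 0.119, adjusted p = 0.000337). Among genes named after their values were seen and T-lineage markers, MAFG differed by -0.82 (SE 0.107), FTH1 by -0.49 (SE 0.0622), CD47 by -0.27 (SE 0.0616), NFE2L2 by 0.46 (SE 0.0909), LAT by 0.96 (SE 0.198) and CD3G by 0.65 (SE 0.0985). Among neighbours of the 8 genes, SYCE2 differed by -1.22 (SE 0.289), RAB3D by -0.81 (SE 0.123), RAB15 by -0.79 (SE 0.102), CALR by -0.78 (SE 0.0558), FARSA by -0.22 (SE 0.0626), HNRNPA1 by -0.22 (SE 0.0561) and DPH2 by 1.01 (SE 0.0982). The adjusted p lay between 6.23e-08 (MYB) and 0.0331 (PLEK).

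SPTB differed between the lines by -4.74 (SE 0.654), since both sh-LDB1 libraries were above both controls in 6T-CEM and below both in J.gamma1. The size of this difference and its SE rest on counts of 0 and 5 in the 6T-CEM controls. It is a description with no p-value, because the changes of SPTB were known when it was listed.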

How the results depend on the processing

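No value past the threshold changed sign under the alternatives run. Counts of calls moved by over 1.5 times under some. DESeq2 called 531 genes in 6T-CEM, against 824 with edgeR. An adjusted p under 0.05 alone gave 5023 genes, 67 listed genes and 18 neighbours in 6T-CEM, and 8870, 96 and 30 in J.gamma1. In 1 fit to all 8 libraries 16 listed genes were called in 6T-CEM, against 10. Within 500 kb 7 of 154 (4.55%) and 20 of 173 (11.6%) neighbours were called, shares under those of all genes, while the shares within 100 kb were above them. Leaving out 1 library gave 690 to 721 calls in 6T-CEM and 2062 to 2390 in J.gamma1, 9 to 13 and 31 to 33 listed genes, 3 to 4 and 8 to 11 neighbours, and 3574 to 4028 genes whose change differed between the lines, against 4524. Where this left 1 library in a group, that library was assumed to vary like the others.

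Replicate numbers did not pair the samples, as deviations from the group means correlated at -0.013 (6T-CEM) and -0.0143 (J.gamma1). With the replicate number as a block 801 and 2240 genes, 10 and 32 listed genes and 3 and 10 neighbours were called, and 4587 genes differed between the lines. AQP1, RHCE and SOCS1 in J.gamma1 then missed the threshold.

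For the 8 genes, 125 of 130 values moved by less than the spread between replicates. Calls of GFI1B, SPTB, KLF1 and EPOR were nevertheless lost in some settings, as given above. NFE2 in J.gamma1, at 0 with sh-LDB1, was -6.33 with a prior count of 2 and -9.67 with DESeq2. SPTB, KLF1 and ITGA2B moved without 1 library, and for SPTB and KLF1 this left a group at 0. Of the values of other named genes, 587 stayed on their side of the threshold, 29 no longer passed it and 4 newly passed it. The cause was not tested. Depth limits ANK1, GFI1B in J.gamma1, and KLF1 and ITGA2B in 6T-CEM, which had 0 to 19 counts in those libraries.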

Other observations

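Of the 15 T-lineage markers 0 were called in the 6T-CEM fit (against 5.13% of all genes) and 2 in the J.gamma1 fit (13.3%, against 13.9%). The 2 were LAT and CD3G, which rose by 1.74 (SE 0.191) and 1.15 (SE 0.0585) on the log2 scale. Of the myeloid markers 3 of 7 were called in 6T-CEM (42.9%, against 5.13% of all genes), at low counts. MPO (myeloperoxidase) rose from 9 and 8 counts to 38 and 32, S100A9 rose from 30 and 35 to 97 and 81, and SPI1, a myeloid transcription factor, fell from 33 and 47 to 12 and 12. In J.gamma1 MPO and SPI1 were at 0 in all 4 libraries, and 0 of 2 myeloid markers tested were called (against 13.9% of all genes). Of the B-lineage markers 0 of 3 in 6T-CEM (against 5.13% of all genes) and 0 of 4 in J.gamma1 (against 13.9%) were called.

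Several genes that red cells need in quantity but that other cells also use changed by less than the fold threshold. They were named after their values were seen. TFRC (the transferrin receptor) had log2 fold changes of -0.71 (SE 0.0514) in 6T-CEM and -0.66 (SE 0.0454) in J.gamma1, FTH1 (ferritin heavy chain) -0.33 and -0.81, FTL (ferritin light chain) 0.41 and 0.37, and CD47 -0.61 and -0.88, each at an adjusted p under 0.05 (edgeR). ALAS1, the first enzyme of heme synthesis outside red cells, had -0.08 (adjusted p = 0.37) and -0.05 (adjusted p = 0.46).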
